A study of Mus musculus with 6 samples.

Results

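Gm12505 is a long intergenic noncoding RNA of mouse chromosome 4 that had the highest fold change between E2 and vehicle in these TRAPseq libraries. It is described here with 7 other transcripts, 4931440P22Rik, B430319G15Rik, E030024N20Rik, Adarb2, Cmah, Tceal5 and Aurkaip1. The 8 members, of 24062 genes in the count table, were chosen by their counts, which lay higher in the E2 than in the vehicle libraries, so their difference between E2 and vehicle is given as a description, with no p. Their levels, their covariation over libraries and the genes on the opposite strand are reported in turn.

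In TRAPseq, a GFP-tagged ribosomal protein L10a is made in one cell type, and the RNA that comes down with an anti-GFP antibody is sequenced. In the GFP-L10a EC mice, the tagged protein depends on VECad-Cre, a recombinase driven by the promoter of vascular endothelial cadherin. The mice were ovariectomized females given vehicle (placebo) or 17β-estradiol (E2) pellets for 4 weeks, and gastrocnemius and soleus were taken. Both groups carried the tagged allele, an EGFP/Rpl10a construct with birA at the ROSA locus on a B6 and 129S4 background, and both were ovariectomized. The labels give an age of 4 weeks, which differs from the age in the study's methods. There were 3 libraries per group, each labelled with the numbers of 2 mice, and the sources used here do not say whether those mice were pooled. The study's methods give more biological replicates per group than there are libraries here. The p-values below therefore measure the spread between libraries.

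Estrogen receptors are ligand-activated transcription factors that bind DNA at estrogen response elements, a pair of inverted GGTCA cores, and also act through other factors. Long noncoding RNAs are transcribed and spliced like messenger RNAs but lack a long reading frame. Processed pseudogenes are copies of messenger RNAs that were inserted elsewhere in the genome. Short reads may not tell such a copy from its source.

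Library totals ranged from 84823 counts in vehicle replicate 3 to 451034 in vehicle replicate 2, and 1 count was worth between 2.22 and 11.8 CPM (counts scaled to a common library total). A single ribosomal RNA row, Rn45s, took 28.5% to 42.9% of the counts. Of genes on the Y chromosome, Uty, Kdm5d, Ddx3y and Eif2s3y gave 40 counts in total in replicate 1 of vehicle, 63 in replicate 2 and 0 in the other 4 libraries, which goes against the female label of those libraries. The 12 pancreatic acinar markers summed to 370 CPM in vehicle replicate 1 and 341 CPM in vehicle replicate 2, against 4.97 to 23.8 CPM in the other libraries. The 16 endothelial markers summed to between 1462 and 6317 CPM with vehicle and between 953 and 2298 CPM with E2, while the 16 skeletal muscle fiber markers summed to between 69230 and 106400 CPM over all 6 libraries. Cd36, a fatty acid transporter, carried 69.3% to 82.5% of the endothelial sum in each library, and without it the sum was 354 to 1120 CPM with vehicle and 167 to 706 CPM with E2. The fatty acid binding protein Fabp4 was the only one called of the 5 markers of that list that passed the filter (log2 fold change -1.81, adjusted p = 0.0499, edgeR). It was called in 6 of 14 alternatives, over which its log2 fold change ran from -2.22 to -0.72. Kdr, the VEGF receptor, stood at -2.22 (adjusted p = 0.0764), Cd36 at -1.31 (0.133) and Cdh5, vascular endothelial cadherin, at 0.13 (0.906) by edgeR. Pecam1, another of the endothelial markers, had 20, 20 and 2 counts with vehicle and 3, 7 and 10 counts with E2, and did not pass the filter. These are raw counts from libraries whose totals ranged from 84823 to 451034, so they do not give its direction between groups. The part of these differences in the members' levels was not tested, and levels are also given against vehicle replicate 3 alone. In bulk RNA, fewer cells of a type and less RNA per cell cannot be told apart.

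Gm12505 spans chr4:55410443-55418842 on the minus strand (mm10), with 4 exons and 757 exonic bases, and has no gene on the opposite strand. Its level was 194, 199.5 and 919.6 CPM in the vehicle libraries and 17650, 9756 and 25830 CPM in the E2 libraries. Vehicle replicate 3 was the highest of its group and E2 replicate 2 the lowest of its own, and the groups did not overlap. The lowest E2 library was 10.6 times the highest vehicle library. By counts, Gm12505 ranked 423rd, 433rd and 74th among all genes in the vehicle libraries and 5th, 8th and 4th in the E2 libraries. It took 0.0194% to 0.092% of the counts with vehicle and 0.976% to 2.58% with E2. The fitted log2 fold change was 5.57 ± 0.71 (SE), the highest of the 1682 genes kept by the filter on low counts. Against vehicle replicate 3 alone, the mean of the E2 libraries was 19.3 times higher.

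The first exon of Gm12505 holds a stretch that also occurs in other transcripts, and it is shown because counts there could come from more than one locus. Bases 46 to 162 of the transcript (chr4:55418681-55418797, minus strand) matched the lincRNA Gm29371 (chr1:87080176-87080292, plus strand) at 115 of 117 bases. Capitals mark the bases that differ.
Gm12505: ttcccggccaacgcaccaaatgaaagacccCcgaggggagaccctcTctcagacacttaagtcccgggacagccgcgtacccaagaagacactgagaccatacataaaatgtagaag
Gm29371: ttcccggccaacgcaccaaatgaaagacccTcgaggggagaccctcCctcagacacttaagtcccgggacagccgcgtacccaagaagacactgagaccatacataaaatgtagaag
Of the 708 windows of 50 bases in the Gm12505 transcript, 21 (2.97%) also occurred in a transcript of another gene.

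The promoter of Gm12505 in RefSeq (GRCm38.p6, chr4:55418793-55419092, minus strand, from 250 bases before the start to 50 after it) is shown because this member changed most, and it held none of the motifs searched.
Gm12505 promoter: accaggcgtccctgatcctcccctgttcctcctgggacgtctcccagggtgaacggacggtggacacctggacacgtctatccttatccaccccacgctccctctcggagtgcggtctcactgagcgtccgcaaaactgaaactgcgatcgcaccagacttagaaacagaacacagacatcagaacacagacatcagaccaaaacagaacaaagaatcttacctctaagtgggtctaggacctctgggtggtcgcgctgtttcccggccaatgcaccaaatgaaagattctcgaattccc
Motifs were searched on both strands of the 32851 mouse promoters in that table. The estrogen response element was spelled GGTCA, any 3 bases, and then the same core inverted, and 0.07% of promoters held it. The core GGTCA alone, which every full element also contains, occurred in 40.5% of promoters. The AP-1 site TGACTCA occurred in 5.2% of promoters. The Sp1 site GGGCGG was found in 35.7% of them. The TATA box TATAAA was found in 13.6%. RefSeq held 8 promoters for 5 of the members, and none of the 8 had the full element, the AP-1 site or the TATA box.

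**Figure D1:**
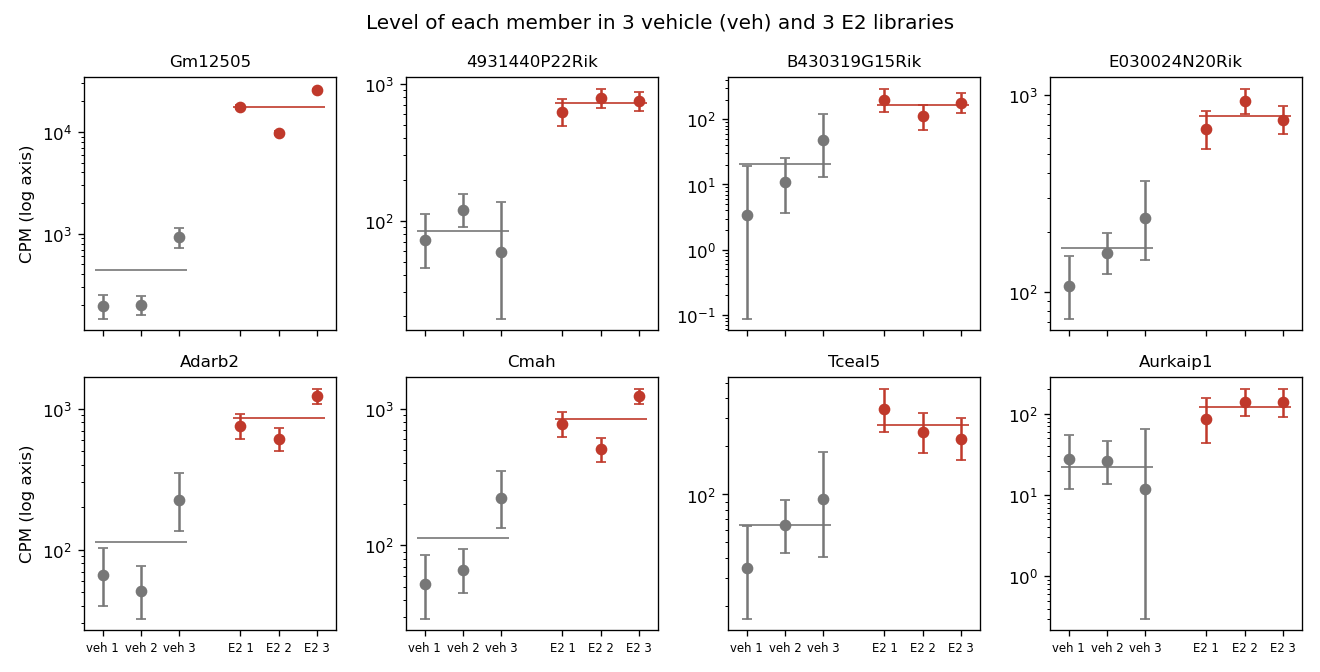
CPM of each member on a log axis in the 3 vehicle libraries (veh, grey) and the 3 E2 libraries (red). Points are single libraries, bars are exact 95% Poisson intervals that cover counting error only, and lines are group means. In each panel the E2 libraries lie above the vehicle libraries, and Gm12505 reached 25830 CPM in E2 replicate 3.

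The other 3 noncoding members resemble or overlap protein-coding genes. 4931440P22Rik, a transcribed processed pseudogene, measured 72.7, 119.7 and 58.95 CPM with vehicle and 627, 791 and 751 CPM with E2. Vehicle replicate 3 was its lowest library, unlike that of Gm12505, and the groups did not overlap. Its log2 fold change was 3.19 ± 0.48. B430319G15Rik, annotated by RefSeq as a long noncoding RNA, measured 3.46, 11.1 and 47.2 CPM with vehicle and 199, 111 and 179 CPM with E2. Those vehicle values rested on 1, 5 and 4 counts, and its log2 fold change was 3.74 ± 0.64. E030024N20Rik, a processed pseudogene, measured 107, 157 and 236 CPM with vehicle and 667, 927 and 746 CPM with E2. Its groups did not overlap either, and its log2 fold change was 2.40 ± 0.48.

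The coding members are Adarb2, Cmah, Tceal5 and Aurkaip1. Adarb2 (chr13:8202866-8768747, plus strand) encodes a double-stranded RNA binding protein of the adenosine deaminase family known mainly from brain. It measured 65.8, 51 and 224 CPM with vehicle and 754, 609.5 and 1224 CPM with E2. Cmah (chr13:24327404-24477377, plus strand) encodes the hydroxylase that makes N-glycolylneuraminic acid, a sialic acid. It measured 51.9, 66.5 and 224 CPM with vehicle and 770.3, 504 and 1234 CPM with E2. In both genes vehicle replicate 3 and E2 replicate 3 were the highest of their groups, E2 replicate 2 was the lowest E2 library, and no E2 library overlapped a vehicle library. Their log2 fold changes were 3.28 ± 0.62 and 3.24 ± 0.63.

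Tceal5 (chrX:136200948-136203876, minus strand), of the transcription elongation factor A-like family, measured 34.6, 64.3 and 94.3 CPM with vehicle and 341, 247 and 224 CPM with E2. Its E2 replicate 1 was the highest, and its groups did not overlap. Aurkaip1 (chr4:155831272-155833130, plus strand), which encodes a protein of the small mitochondrial ribosomal subunit that also binds Aurora A kinase, measured 27.7, 26.6 and 11.8 CPM with vehicle and 87.3, 141 and 139 CPM with E2. It was the member with the fewest counts, 88 over all libraries, and vehicle replicate 3 held 1 of them. Their log2 fold changes were 2.31 ± 0.49 and 2.46 ± 0.48.

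All 8 members passed the filter, and in each the E2 libraries lay above the vehicle libraries, as 8.68% of the kept genes did. The quasi-likelihood test of edgeR called 42 genes higher with E2 (2.50% of those tested) and 50 lower (2.97%) at an adjusted p under 0.05. The ratio of the lowest E2 library to the highest vehicle library ran from 2.25 in Cmah to 10.6 in Gm12505. Against vehicle replicate 3 alone, the mean E2 level was 2.87 times higher in Tceal5, 3.31 in E030024N20Rik, 3.45 in B430319G15Rik, 3.73 in Cmah and 3.85 in Adarb2. It was 12.3 times higher in 4931440P22Rik, whose vehicle replicate 3 held 5 counts. For Aurkaip1, with 1 count there, the ratio of the pooled E2 counts to that library was 10.8, with an exact 95% interval of 1.88 to 434 that covers counting error only. Per kilobase of exon, Gm12505 had the highest mean E2 level, 23440 CPM per kilobase, and the others lay between 40.01 and 1579 by GENCODE exon lengths. The value of 1579, for E030024N20Rik, rests on a model of 494 bases, and RefSeq gives this gene a longer span (chr19:16164098-16170458), so its place among the others is uncertain. The same holds for 4931440P22Rik, at 163, whose GENCODE exons (4437 bases) reach beyond its RefSeq span. Without vehicle replicate 3, the log2 fold change was 6.80 in Gm12505, 4.52 in B430319G15Rik, 4.19 in Adarb2 and 4.11 in Cmah. That of B430319G15Rik was 3.07 without vehicle replicate 1. No other omission of 1 library moved a member's fold by more than 1.5 times.

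**Figure D2:**
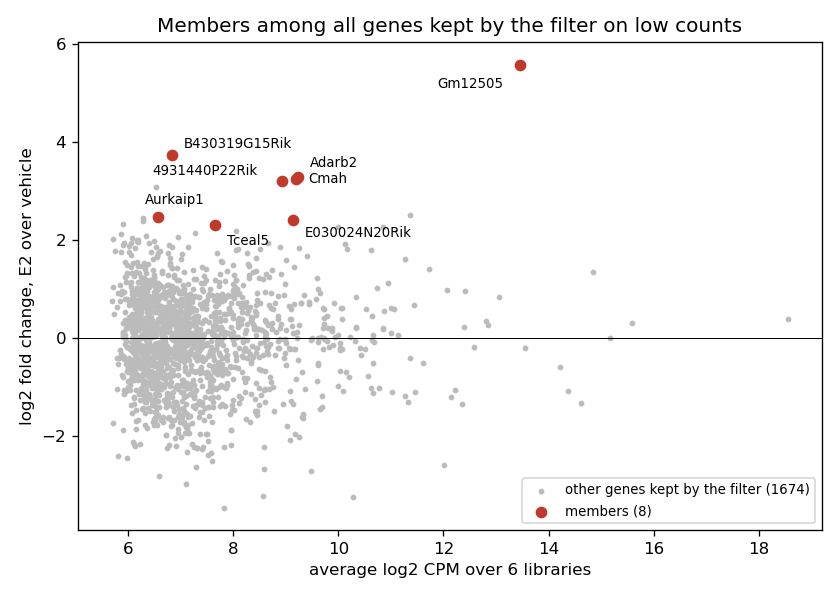
Log2 fold change of E2 over vehicle against the average log2 CPM for the 1682 genes kept by the filter, with the 8 members in red. Gm12505 stands at 5.57 and the other members between 2.31 and 3.74, and the median of all genes was 0.01.

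Just below Tceal5, the member with the lowest fold change, stood Rpl27 (log2 fold change 2.27), Rpl28 (2.26) and Tsix (2.18). Rpl27 and Rpl28 encode large ribosomal subunit proteins, and Tsix is the antisense RNA of Xist. Tsix had 0, 0 and 29 counts with vehicle and 51, 91 and 37 with E2, so that its zeros were in the 2 libraries with Y-linked transcripts. Outside the members, 4 genes had a fold change above that of Tceal5 with no overlap between groups. These were Eif3i (log2 fold change 3.08 ± 0.53, adjusted p = 0.00579), Gm17821 (2.50 ± 0.54, adjusted p = 0.0183), Elp5 (2.45 ± 0.55, adjusted p = 0.0204) and C330021F23Rik (2.39 ± 0.52, adjusted p = 0.0183) by edgeR. Eif3i was still called when any 1 library was left out. Gm17821 was then called only without vehicle replicate 3 or E2 replicate 2 (log2 fold change 3.10 and 2.88), and the other omissions gave 2.11 to 2.57. Elp5 was called only without vehicle replicate 3 or E2 replicate 3 (2.95 and 2.71, against 1.97 to 2.62 without the others), and C330021F23Rik only without vehicle replicate 3 or E2 replicate 1 (2.71 and 2.67, against 1.92 to 2.49). DESeq2 called Eif3i and Gm17821 and gave no adjusted p for Elp5 and C330021F23Rik. With at least 10 counts in every library, Gm17821 alone of these 4 was tested, and it was called. Against vehicle replicate 3 alone, a fit that assumes the lone library to vary like the E2 libraries, the log2 fold changes were 3.47 in Eif3i, 1.81 in Gm17821, 1.56 in C330021F23Rik and 1.14 in Elp5, with adjusted p from 0.144 to 0.702.

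The members covaried over the 6 libraries, as they must in part because each was chosen for its difference between groups. The median Pearson r of log2 CPM over the 28 pairs was 0.95, and the lowest was 0.77, between B430319G15Rik and Aurkaip1. After the mean of each group was subtracted, which removes the difference used for the choice, the median r was 0.72 and the range ran from -0.81 to 0.99. The points share library depth and scaling, and no p is given.

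These within-group deviations separated the members, a split seen only after the values were known. Gm12505, B430319G15Rik, E030024N20Rik, Adarb2, Cmah and Tceal5 correlated with each other at 0.64 to 0.99 over their 15 pairs. 4931440P22Rik and Aurkaip1 correlated at 0.72 with each other and at -0.81 to -0.23 with those 6. Vehicle replicate 3 lay 0.61 to 1.52 above its group mean on the log2 scale in the first 6, and at -0.33 and -0.48 from it in the others. It was also the shallowest library, where 4931440P22Rik and Aurkaip1 had 5 and 1 counts, and B430319G15Rik and Tceal5, which lay above their group means, had 4 and 8. Vehicle replicate 3 further differed from vehicle replicates 1 and 2 in Y-linked counts (0, against 40 and 63). Its pancreatic acinar markers summed to 23.6 CPM, against 370 and 341 CPM there. The part of these differences in the split was not tested.

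**Figure D3:**
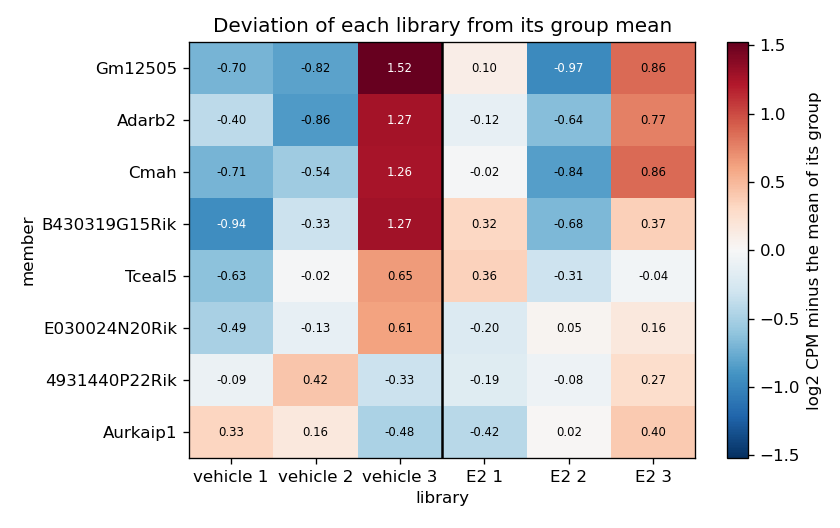
Log2 CPM of each member minus the mean of its group, by library, with red above and blue below the group mean. Vehicle replicate 3 lies above its group mean for the upper 6 members (1.52 for Gm12505) and below it for 4931440P22Rik and Aurkaip1.

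Adarb2 and Cmah had nearly equal counts in every library. Adarb2 had 19, 23 and 19 counts with vehicle and 95, 121 and 246 with E2, and Cmah had 15, 30 and 19 and then 97, 100 and 248. Their ratio ran from 0.767 to 1.27, so its highest value was 1.66 times its lowest. No window of 50 bases of the longest Adarb2 transcript occurred unchanged in a transcript of another gene, Cmah included. That transcript has 6721 bases, the gene has 13114 exonic bases in GENCODE, and the rest was not searched. Of the Cmah windows, 4.53% occurred in transcripts of other genes. The ratio of Gm12505 to Adarb2 was 2.95, 3.91 and 4.11 with vehicle and 23.4, 16 and 21.1 with E2.

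The 10 genes outside the members whose log2 CPM followed Gm12505 most closely had a Pearson r of 0.97 to 0.99 over the 6 libraries, where the 1681 other genes kept had a median of 0.06 and a 95th percentile of 0.91. A total of 115 genes outside the members had a higher r with Gm12505 than the lowest member had, and a difference between the groups alone can give a high r over 6 libraries. They were 1110008L16Rik, Gm17821, 6230400D17Rik, Gm5148, 1700018L02Rik, Srr, Mrrf, 4930414L22Rik, 4933408J17Rik and AV051173. Srr encodes serine racemase and Mrrf the mitochondrial ribosome recycling factor. With group means removed, their r with Gm12505 was 0.78 to 0.96, the highest being Gm17821. No background over all genes is given for r with group means removed, here or among the members. Gm17821 had 125, 274 and 98 counts with vehicle and 447, 452 and 1010 with E2.

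The opposite-strand genes of 3 noncoding members had few counts. 4931440P22Rik (chr3:65507257-65529379, minus strand in GENCODE) shares 223 exonic bases with Tiparp, a mono-ADP-ribosyltransferase induced by the aryl hydrocarbon receptor. Tiparp had 1, 2 and 0 counts with vehicle and 0, 0 and 1 with E2. B430319G15Rik (chr9:92538801-92542869, minus strand, a single exon of 4069 bases) shares 346 exonic bases with Plod2, a lysyl hydroxylase that modifies collagen. Plod2 had 0, 4 and 0 counts with vehicle and 0, 2 and 1 with E2. E030024N20Rik (chr19:16164312-16164805, minus strand) lies within Gnaq, which encodes a G protein alpha subunit, and shares no exonic base with it. Gnaq had 6, 17 and 0 counts with vehicle and 0, 2 and 4 with E2. In each library the member had at least as many counts as its opposite-strand gene. The labels name a stranded kit, whereas the methods of the study name a kit for ribosome profiling, and the sources used here do not say whether reads were counted by strand, so reads of a gene and its opposite-strand partner cannot be told apart in the shared exons. Adarb2 overlaps the opposite-strand pseudogenes Gm10357 and Gm48260, and Cmah overlaps the antisense gene Gm11342 and the pseudogene Gm11344. These share 0 exonic bases with the members and were not analysed here.

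None of the annotated neighbours of the members passed the filter on low counts. Without the filter, 15 of them could be tested, and edgeR called 0 at an adjusted and 1 at an unadjusted p under 0.05. DESeq2 gave no adjusted p for these 15, and 0 had an unadjusted p under 0.05. The neighbours of Gm12505, Rad23b 18206 bases to the left and Klf4 108301 bases to the right, had 14 and 46 counts over all libraries. Klf4, a transcription factor made in endothelium, had 11, 20 and 3 counts with vehicle and 4 in each E2 library. Ssr3, on the same strand as 4931440P22Rik, was called only without vehicle replicate 3 (adjusted p = 0.0313, edgeR). Its log2 fold change ran from 1.16 to 1.87 over the 6 alternatives that gave one.

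Similar sequences elsewhere were compared as well. E030024N20Rik is a copy of Ppia, which encodes cyclophilin A, and matched it at 478 of 495 aligned positions. The first 75 bases from the start codon of Ppia (chr11) are shown beside the copy because 52.6% of the windows of 50 bases in E030024N20Rik also occur in other transcripts. That share is of the GENCODE model of 494 bases, and the longer RefSeq span of the gene was not searched. Capitals mark the bases that differ.
E030024N20Rik: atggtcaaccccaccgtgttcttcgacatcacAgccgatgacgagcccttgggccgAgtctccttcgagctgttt
Ppia: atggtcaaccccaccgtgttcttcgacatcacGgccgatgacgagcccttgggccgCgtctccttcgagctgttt
Ppia itself had 9, 15 and 0 counts with vehicle and 1, 0 and 2 with E2, fewer than E030024N20Rik in every library. The sources used here do not say how reads were split between such copies, and the level of E030024N20Rik is uncertain for that reason.

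The GENCODE model of 4931440P22Rik holds a copy of Rpl29 (89.9% identical over 643 aligned positions) at chr3:65508577-65509197, outside the RefSeq span of the gene (chr3:65527483-65529414). Rpl29 had 8, 14 and 5 counts with vehicle and 2, 9 and 3 with E2. B430319G15Rik holds a copy of Rpl39 (85.4% identical over 315 positions), and Rpl39 had 20, 72 and 8 counts with vehicle and 11, 62 and 20 with E2. Tceal5 shared 31% of its windows with Tceal3 or Tceal6, which had 7 and 0 counts over all libraries. The shares were 9.85% for B430319G15Rik, 7.27% for 4931440P22Rik and 4.53% for Cmah, and 0 for Adarb2 and Aurkaip1. That of B430319G15Rik includes annotation of its own locus, and so does not measure its likeness to Rpl39. It matched Plod2 on the opposite strand over 346 bases and the overlapping pseudogene Gm37545 over 148 bases, both at 100%. All shares are of the longest GENCODE transcript of a gene and count exact matches on either strand. The Cmah transcript was 91.3% identical to D10Wsu102e over 3547 aligned positions, and D10Wsu102e had 2 counts over all libraries.

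**Figure D4:**
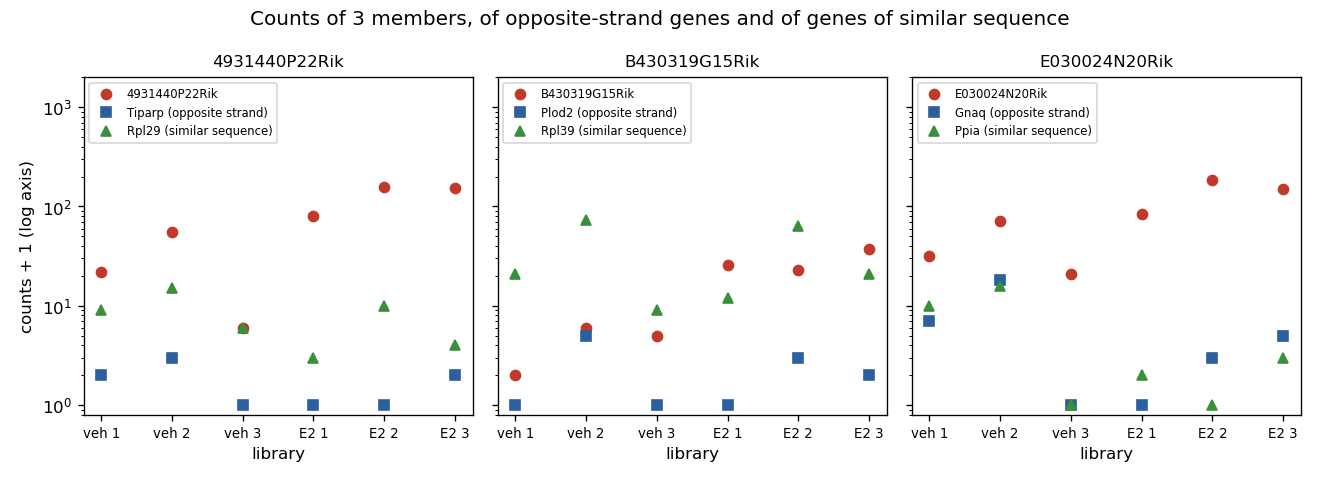
Counts plus 1 on a log axis in each library for 3 members (red circles), the gene on the opposite strand (blue squares) and the coding gene of similar sequence (green triangles). Tiparp, Plod2 and Gnaq stay at 17 counts or fewer while the members reach 36 to 184.

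The promoter of B430319G15Rik (GRCm38.p6, chr9:92542820-92543119, minus strand) held the core GGTCA at position -176 from the start, in capitals, and is shown as the one noncoding promoter with it.
B430319G15Rik promoter: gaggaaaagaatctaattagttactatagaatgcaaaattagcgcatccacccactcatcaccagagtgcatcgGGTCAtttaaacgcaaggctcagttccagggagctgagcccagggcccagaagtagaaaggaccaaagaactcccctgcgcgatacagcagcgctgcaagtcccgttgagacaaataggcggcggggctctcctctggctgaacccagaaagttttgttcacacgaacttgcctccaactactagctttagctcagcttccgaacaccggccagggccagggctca
The core also occurred in 1 promoter of Cmah and 1 of Tceal5, so in 3 of 8 member promoters against 40.5% of all promoters. These 8 promoters belong to 5 genes, and those of Tceal5 overlap each other, so they are not independent. The Sp1 site occurred in the promoter of Adarb2. RefSeq gave no promoter here for 4931440P22Rik, E030024N20Rik and Aurkaip1.

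Genes related to the members were sparse. Of 13 other genes of the ADAR family and A-to-I editing, 1 passed the filter and 0 were called by edgeR (0 at an unadjusted p under 0.05). Adat2, a tRNA adenosine deaminase, had a log2 fold change of 0.54 ± 0.45. Dicer1, a ribonuclease that makes small RNAs, had 36, 58 and 4 counts with vehicle and 3, 0 and 9 with E2 and did not pass the filter. Without the filter the log2 fold change of Dicer1 was -2.16 (adjusted p = 0.0469, edgeR). Dicer1 passed the filter in 4 of the fits without 1 library, and was called without vehicle replicate 3 (log2 fold change -2.18, adjusted p = 0.00336). Without E2 replicate 1, 2 or 3 its log2 fold change was -1.96, -1.18 or -3.31, with an adjusted p of 0.18, 0.345 or 0.0881 by edgeR, so that E2 replicate 2, where it had 0 counts, and E2 replicate 3 each moved the value by over 1.5 times. DESeq2 gave it no adjusted p. Adarb1, the paralog of Adarb2, had 20 counts over all libraries. Of 29 genes of sialic acid synthesis, transfer and removal, 2 were tested and edgeR called 0 (1 at an unadjusted p under 0.05), and Ctsa, the protective protein of lysosomal neuraminidase, had a log2 fold change of 1.04 ± 0.45 (adjusted p = 0.148, edgeR). St3gal5, a sialyltransferase, had 28, 46 and 4 counts with vehicle and 2, 8 and 8 with E2. None of the 14 genes of the Tceal and Bex family in the table passed the filter, and the most abundant of them, Wbp5, had 29, 25 and 0 counts with vehicle and 3 in each E2 library. Of 35 genes of the small mitochondrial ribosomal subunit and Aurora A, 3 were tested and edgeR called 0 (0 at an unadjusted p under 0.05), with a median log2 fold change of -0.01. Mrps25 stood at 0.16 ± 0.52 and Mrps21 at -0.19 ± 0.46. Of 8 genes of the aryl hydrocarbon receptor pathway, Arnt alone was tested, at 0.02 ± 0.44.

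Among 20 estrogen receptors and classical estrogen-responsive genes, 3 were tested. Complement component C3 rose with E2, from 10, 35 and 2 counts to 16, 54 and 41 (log2 fold change 2.14 ± 0.49, adjusted p = 0.0222, edgeR), and the chemokine Cxcl12 fell, from 26, 35 and 8 counts to 2, 3 and 4 (-2.15 ± 0.56, adjusted p = 0.0376, edgeR). Nrip1, the other gene tested, was not called (log2 fold change -0.17 ± 0.50, adjusted p = 0.855, edgeR). Esr1, estrogen receptor alpha, had 18 counts over all libraries and Greb1 had 0. The call of C3 was lost without vehicle replicate 1 (adjusted p = 0.161), without E2 replicate 2 (0.0966) and without E2 replicate 3 (0.0862). The call of Cxcl12 was lost when any library but vehicle replicate 3 was left out (adjusted p 0.0915 to 0.213). Over all fits without 1 library, the log2 fold change of C3 ran from 1.89 to 2.67 and that of Cxcl12 from -2.37 to -1.83. Without the filter, Cxcl12 had an adjusted p of 0.0519 by edgeR, and DESeq2 gave it none. Neither gene was called against vehicle replicate 3 alone (adjusted p = 0.0796 and 0.603), a fit in which the lone vehicle library is assumed to vary like the E2 libraries, while their log2 fold changes there were 3.16 and -2.30.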

How the data were processed

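The labels place 6 TRAPseq libraries in a vehicle and an E2 group of 3 each. Per the processing notes of the submitters, the authors used bcl2fastq (2.17) and FastQC (0.11.2), aligned reads to mm10 by STAR (2.5.3a) and obtained counts per gene symbol by featureCounts in Subread (1.6.0). The deposited table holds these counts, not normalized, for 24062 genes.

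From these counts, E2 was compared with vehicle with edgeR (4.0.16, R 4.3.3): filterByExpr, TMM scaling, the quasi-likelihood test and Benjamini-Hochberg adjustment at 0.05 over all genes kept. CPM were taken over all counts, and log2 CPM for correlations used TMM and a prior count of 2. Poisson intervals (exact, 95%) reflect counting error alone. Positions came from GENCODE M21 (mm10), similar transcripts from BLAST (2.17.0) and promoters from RefSeq (GRCm38.p6).

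The members and gene lists were chosen with earlier results of these data known. Named genes were all members, their overlapping and nearest neighbours, called genes of the family lists or else the 2 with most counts, the 10 genes most like Gm12505, and genes above the lowest member's fold change without overlap between groups. Alternatives were omission of the filter, a minimum of 10 counts per library, RLE, library totals, omission of Rn45s or of the members from the totals, DESeq2 (1.42.0), a replicate block and leaving out libraries. Replicate numbers are shared by the groups, but same-numbered libraries did not deviate together (correlations of -0.13, 0.03 and -0.20), so they were not paired.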

Additional observations from a re-analysis of the deposited data

How the results depend on the processing

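The log2 fold changes of the members stayed above 0 in all 116 alternative values. Across these, that of Gm12505 ran from 4.44 to 6.80. Leaving out 1 library gave 5.10 to 6.80 for Gm12505, 2.76 to 4.19 for Adarb2, 2.74 to 4.11 for Cmah and 3.07 to 4.52 for B430319G15Rik, with the highest values without vehicle replicate 3. These directions follow from the choice of members. The median pairwise correlation was 0.89 by Spearman's rank and 0.72 with group means removed.

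The counts of genes called, 42 higher and 50 lower, depended on the processing, and the cause was not tested. Lower calls numbered 132 without the filter and 90 with library totals only. With at least 10 counts in every library, which left 578 genes, there were 11 higher and 0 lower and 0 family list genes. With the replicate block there were 7 higher, 1 lower and 0 family list genes (C3 at an adjusted p of 0.0774 and Cxcl12 at 0.119), Elp5 (0.104) and C330021F23Rik (0.0922) were not called while Eif3i and Gm17821 were, and 1 of 6 libraries correlated best with its own number. Against vehicle replicate 3 alone, with 1 library in an arm that is assumed to vary like the E2 libraries, there were 6 higher, 1 lower and 0 family list genes, although the log2 fold changes of C3 and Cxcl12 were 3.16 and -2.30 there. DESeq2 called 1 family list gene, and gave no adjusted p for 93 of 98 of them or for any neighbour. Leaving out 1 library gave 6 to 477 higher, 2 to 526 lower, 0 to 8 family list genes and 0 to 1 neighbours, the highest values without vehicle replicate 3. Depth limits low members: 3 counts correspond to 35.4 CPM in vehicle replicate 3.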
